A study of Mus musculus with 6 samples.

Results

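Pecam1, Cdh5, Tek, Tie1, Kdr, Flt1, Eng, Esam, Emcn and Erg are genes by which endothelial cells, the lining of blood vessels, are recognised. They are 10 of the 25576 genes listed in at least 1 of 6 bulk-seq libraries of mouse spinal cord. The 10 genes were chosen by name with earlier results of the same libraries known, and so was the choice to leave out control replicate 2. The differences between SMA and control are therefore a description of these libraries, and p-values from the fit over all genes are given with them but are not independent support. Bulk-seq, RNA sequencing of whole tissue, covered spinal cords of FVB mice at postnatal day 4. The 3 SMA libraries came from Taiwanese type I SMA mice with the genotype mSmn-/-, hSMN22tg/0. In these mice both copies of mouse Smn are knocked out, and they carry a human SMN2 transgene. The 3 control libraries came from mSmn+/-, hSMN22tg/0 mice, so the controls carry the transgene too and have a single Smn copy knocked out. The methods give bulk-seq as triplicates with n = 1 per group, so the spread between replicates, and the p-values that rest on it, may be technical.

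Endothelial cells form the inner wall of every vessel, and in the spinal cord they build the blood-spinal cord barrier together with pericytes and astrocyte endfeet. They receive vascular endothelial growth factor (VEGF) through the receptor tyrosine kinases Kdr and Flt1 and angiopoietins through Tek, whose signalling is tuned by its relative Tie1. Neighbouring endothelial cells are held together by Cdh5 (VE-cadherin), Pecam1 (CD31) and Esam, while ETS transcription factors such as Erg keep the endothelial programme on.

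The genes lie on 8 chromosomes in the mm10 (GRCm38) coordinates of the files. Kdr (ENSMUSG00000062960) spans chr5:75932827-75978458 and Flt1 (ENSMUSG00000029648) chr5:147561604-147726011, both on the minus strand. Tek (ENSMUSG00000006386) spans chr4:94739289-94874976 on the plus strand and Tie1 (ENSMUSG00000033191) chr4:118471191-118490061 on the minus strand. Pecam1 (ENSMUSG00000020717) spans chr11:106654217-106750628 on the minus strand, Cdh5 (ENSMUSG00000031871) chr8:104101625-104144502 on the plus strand and Esam (ENSMUSG00000001946) chr9:37528078-37538319 on the plus strand. Eng (ENSMUSG00000026814) is given the span chr2:32646595-32704145, Emcn (ENSMUSG00000054690) chr3:137341067-137432185, both on the plus strand, and Erg (ENSMUSG00000040732) chr16:95359169-95586593 on the minus strand. In the GENCODE M21 annotation, Eng is the only one of the 10 whose exons overlap those of another gene. It shares 61 exonic bases, 1.51% of its exonic length, with Fpgs on the opposite strand, and the files give both genes a single span.

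Promoters of Kdr, Tek and Erg are shown because each has the highest mean level of its role (VEGF receptor, Tie receptor and transcription factor) over the 6 libraries, although without control replicate 2 Tie1 was above Tek, and because ETS factors bind sequences with the core GGAA. They are from RefSeq (GRCm38.p6), which matched 7 of the 10 genes with 9 start sites. The set used here has no entry for Pecam1, Cdh5 and Esam. Each is the 250 bases before the start, read 5′ to 3′ on the strand of the gene, and capitals mark GGAA on either strand. Kdr lies at chr5:75978456-75978705 (minus strand), Tek at chr4:94739039-94739288 (plus strand) and Erg at chr16:95586594-95586843 (minus strand), the last at the start that bounds the Erg span in the files.
Kdr: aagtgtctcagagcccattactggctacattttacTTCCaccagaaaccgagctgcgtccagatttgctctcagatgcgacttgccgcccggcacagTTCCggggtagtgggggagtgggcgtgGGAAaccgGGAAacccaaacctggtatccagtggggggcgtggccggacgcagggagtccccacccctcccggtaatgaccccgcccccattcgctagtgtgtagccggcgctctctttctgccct
Tek: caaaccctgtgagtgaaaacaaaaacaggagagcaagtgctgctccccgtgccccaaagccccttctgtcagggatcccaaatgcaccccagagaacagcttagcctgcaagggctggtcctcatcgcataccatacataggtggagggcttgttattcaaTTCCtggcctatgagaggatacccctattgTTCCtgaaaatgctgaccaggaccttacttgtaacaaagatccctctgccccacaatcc
Erg: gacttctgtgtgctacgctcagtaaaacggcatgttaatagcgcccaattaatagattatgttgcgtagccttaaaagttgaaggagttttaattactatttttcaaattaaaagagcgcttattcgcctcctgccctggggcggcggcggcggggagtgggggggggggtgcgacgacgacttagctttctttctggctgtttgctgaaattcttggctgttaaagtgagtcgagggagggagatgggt
The Kdr window held 4 matches to GGAA, the Tek window 2 and the Erg window 0. Of all 32851 promoter windows of this length, 93.4% held GGAA on either strand, so a match is common. The longer forms AGGAAG and GGAAGT, which overlap GGAA, were in 29.5% and 19.7% of all windows, and in 5 and 4 of the 9 windows of the endothelial genes. AGATAA, which other vascular transcription factors bind, was in 9.99% of all windows and 1 of the 9, at another Erg start. GGGCGG, the GC box, was in 32.7% of all windows and 3 of the 9, with 3 matches in Flt1, 2 in Kdr and 1 in Erg. A match describes letters only, and no binding was measured.

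Smn1, the gene knocked out in SMA mice, was read first as a check of the labels. It was listed at 10.4, 8.64 and 11.9 FPKM among controls, against 8.48, 9.30 and 11.1 FPKM among SMA libraries, so the groups overlapped and the level of the whole gene leaves the genotype labels unchecked. FPKM counts fragments per length of exon and per mapped fragments of the library, so levels of different genes can be compared. Wherever 3 values of a group are given, they are those of replicates 1, 2 and 3, in that order. SMA and control below mean the libraries labelled so.

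Control replicate 2 stood apart from the other 5 libraries. Its correlation with them across genes, which are no independent replicates, was 0.836 to 0.849, against at least 0.983 among the others. All 18 hepatocyte genes of the marker list were highest there, with a summed level of 35920 FPKM against 64.9 to 136.7 FPKM elsewhere. Alb, the most abundant, was at 15894.5 FPKM against 24.6 to 56.2 FPKM. All 10 liver sinusoidal endothelial genes were highest there too, at a summed 69.4 FPKM against 5.03 to 8.80 FPKM. Stab2, a scavenger receptor of liver sinusoids, was at 19.1 FPKM in control replicate 2 and at 0.0706 to 0.224 FPKM in the others. The 9 erythroid genes summed to 18862 FPKM against 1115 to 1863 FPKM (most abundant by the mean over the 6 libraries Hbb-bs), the 7 neutrophil genes to 418 FPKM against 5.36 to 11.6 FPKM (S100a8), and the 8 megakaryocyte and platelet genes to 51.0 FPKM against 2.61 to 4.82 FPKM (Pf4). In the same library 0 of 11 neuron genes were highest, and they summed to 1659 FPKM against 2252 to 2617 FPKM (Meg3). Tat in control replicate 1, Elane in control replicate 3 and SMA replicate 1, Gata4 in the same libraries as Elane, Dnase1l3 in SMA replicate 1 and Oit3 in SMA replicate 2 were not listed, which was taken as 0 FPKM. Of the platelet genes, Gp1ba was not listed in control replicates 1 and 3 and SMA replicate 3, Gp6 in SMA replicates 1 and 2, and Gp9 in control replicate 3 and SMA replicate 2. Of the 10 endothelial identity genes, 7 were highest of all libraries in control replicate 2, and fold changes and tests below are given with and without it, or the value in each library is shown. The part of these other cell types in the endothelial values was not tested.

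Across the 10 genes, 5 had every SMA library below every control library, and these were Kdr, Tek, Tie1, Pecam1 and Emcn. The same 5 names had no overlap without control replicate 2. Differences were computed on log2(FPKM + 1), which understates the change of low genes, with limma, a linear model for each gene with moderated variances, over genes whose mean FPKM reached 0.5. All 10 endothelial genes passed this filter with 6 and with 5 libraries. Over all 17088 genes tested with 6 libraries, 6.67% had every SMA library below every control library and 10.3% had the opposite. Over the 16574 genes tested without control replicate 2 these shares were 13.9% and 14.2%. At an unadjusted p under 0.05 in limma, 5 of the 10 were lower and 0 higher with 6 libraries, beside 2.39% lower and 3.4% higher of all genes. Without control replicate 2 the counts were again 5 and 0, beside 5.2% and 5.27%. No gene of the 17088 passed an adjusted p of 0.05 in limma with 6 libraries (0%), where an unadjusted p under 0.05 was reached by 409 lower and 581 higher genes. Without control replicate 2, 2 genes (0.0121%) passed, Snora74a and Rpph1, named after their values were seen, and both were higher in SMA.

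The median log2 fold change of the 10 genes was -0.53 with 6 libraries, beside 0.04 over all genes tested, and -0.38 without control replicate 2, beside 0.0016. The number of genes without overlap was 8 when control replicate 1 was left out, beside 12% of all genes tested, and 8 when control replicates 1 and 2 were both left out, beside 31.1% of all genes, since 3 SMA libraries then face a single control. The number lower at an unadjusted p under 0.05 was 2 without SMA replicate 2 (0.83% of all genes) and 2 without SMA replicate 3 (0.731%). With control replicate 2 left out as well, these counts were 2 (3.29%) and 2 (3.22%). It was 1 when control replicates 2 and 3 were both left out, beside 8.24% of all genes, and 1 of 10 is near that share. A lone control is assumed to vary like the SMA libraries. Fewer endothelial cells and less RNA per endothelial cell cannot be told apart in bulk-seq.

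**Figure D1:**
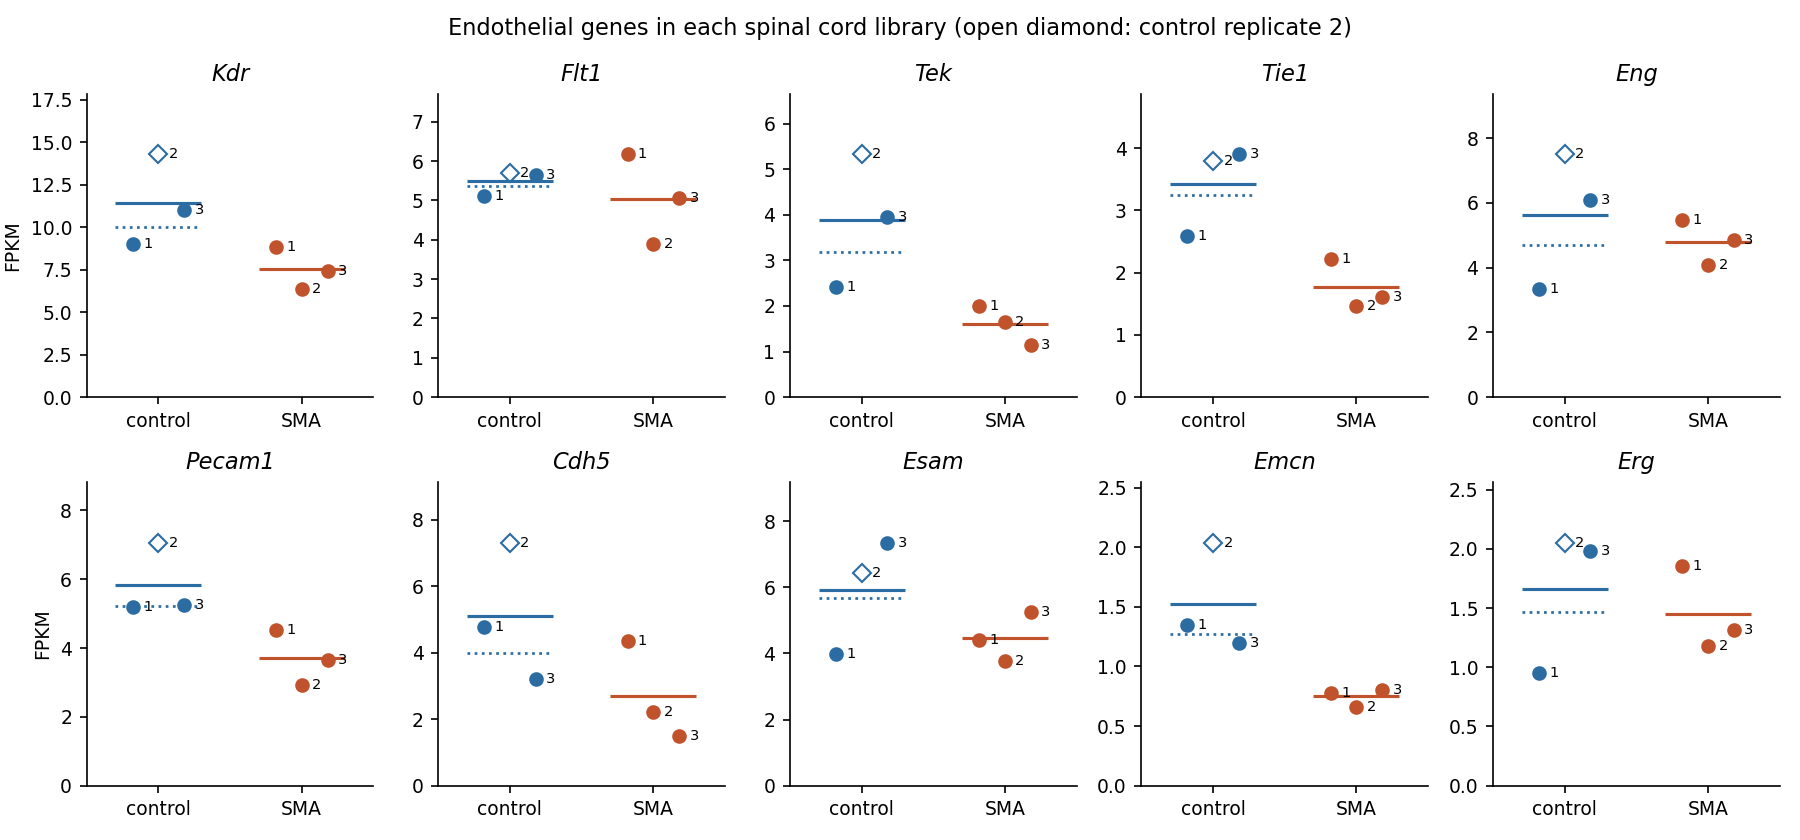
FPKM of the 10 endothelial genes (y axis, FPKM) in the 3 control (blue) and 3 SMA (orange) libraries, 1 point a library with its replicate number, solid lines at group means and a dotted line at the control mean without control replicate 2 (open diamond). Kdr, Tek, Tie1, Pecam1 and Emcn had every SMA library below every control library, and the other 5 genes overlapped.

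Kdr, the main signalling receptor for VEGF, was the most abundant of the 10 genes in all 6 libraries. It was at 9.01, 14.3 and 11.05 FPKM among controls, against 8.83, 6.36 and 7.43 FPKM among SMA libraries. All SMA libraries were lower than all control libraries, but SMA replicate 1 and control replicate 1 lay close together. The group means were 11.5 ± 2.67 FPKM (SD, n = 3) in control and 7.54 ± 1.24 FPKM (SD, n = 3) in SMA, 34.2% lower. Leaving out control replicate 2, the SMA mean was 24.8% lower. SMA minus control, the log2 fold change was -0.53 (limma adjusted p = 0.683, standard error 0.19) and -0.37 (limma adjusted p = 0.443, standard error 0.14) without control replicate 2. The second value was -0.24 when control replicate 3 was left out as well, and -0.51 when control replicate 1 was.

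Flt1, which binds VEGF tightly, signals weakly and also exists as a soluble decoy, overlapped between the groups. It was at 5.11, 5.69 and 5.65 FPKM among controls, against 6.17, 3.90 and 5.06 FPKM among SMA libraries. SMA replicate 1 had the highest and SMA replicate 2 the lowest value of all libraries. On the log2 scale the difference was -0.12 (standard error 0.16, 95% interval -0.49 to 0.26, adjusted p = 0.773 from limma), and -0.09 without control replicate 2 (95% interval -0.48 to 0.30). The direction turned to 0.03 without SMA replicate 2, and to 0.05 when control replicate 2 was left out as well.

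The ratio of Kdr to Flt1 within a library does not depend on how the library is scaled. Its values were 1.76, 2.51 and 1.96 for the controls and 1.43, 1.63 and 1.47 for the SMA libraries. All 3 SMA ratios were below all 3 control ratios. The mean was 2.08 ± 0.390 (SD, n = 3) in control and 1.51 ± 0.106 (SD, n = 3) in SMA, a log2 difference of -0.45. An exact two-sided permutation test gave p = 0.1, the smallest that 3 libraries against 3 allow, and an adjusted p of 0.2 over the 2 receptor pairs compared. When control replicate 2 was left out, the log2 difference was -0.30 (exact permutation p = 0.1, also the smallest possible, and 0.2 adjusted).

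**Figure D2:**
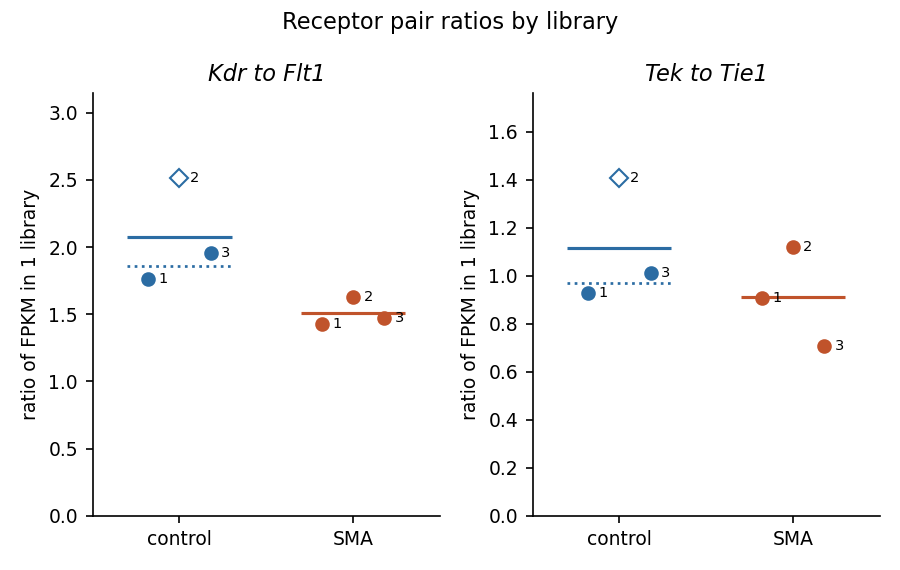
Ratio of the FPKM of Kdr to Flt1 (left) and of Tek to Tie1 (right) in each library (y axis, ratio without unit), with points and lines for control (blue) and SMA (orange) as in the plot of the 10 genes. The Kdr to Flt1 ratio was 1.43 to 1.63 in SMA and 1.76 to 2.51 in control, and the Tek to Tie1 ratios overlapped.

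Tek (Tie2), the angiopoietin receptor that keeps vessels quiescent, had the largest log2 fold change of the 10 genes in both fits. It was at 2.41, 5.33 and 3.95 FPKM among controls, against 2.00, 1.64 and 1.14 FPKM among SMA libraries. The SMA libraries were all lower, and the controls were spread over a wider range than the distance between the groups. The SMA mean of 1.59 ± 0.435 FPKM (SD, n = 3) was 59.1% below the control mean of 3.89 ± 1.46 FPKM (SD, n = 3). Leaving control replicate 2 out, the control mean was 3.18 FPKM and the SMA mean 49.8% lower. This gave a log2 fold change of -0.88 (limma adjusted p = 0.683, standard error 0.25), and -0.68 (limma adjusted p = 0.379, standard error 0.21) without control replicate 2. The second value was -0.41 when control replicate 3 was left out as well, and -0.95 when control replicate 1 was.

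Tie1, the related receptor that binds no angiopoietin on its own and acts with Tek, was at 2.59, 3.79 and 3.90 FPKM among controls. In SMA replicates 1 to 3 it was at 2.21, 1.47 and 1.61 FPKM, all below the controls. Here control replicate 2 was not the highest library. The SMA mean of 1.76 ± 0.398 FPKM (SD, n = 3) was 48.5% below the control mean of 3.43 ± 0.725 FPKM (SD, n = 3), and 45.7% below it without control replicate 2. Its log2 fold change was -0.68 (limma adjusted p = 0.683, standard error 0.18) and -0.61 (limma adjusted p = 0.366, standard error 0.19) without control replicate 2. The second value was -0.39 when control replicate 3 was left out as well, and -0.84 when control replicate 1 was. The ratio of Tek to Tie1 was 0.929, 1.41 and 1.01 in control and 0.905, 1.12 and 0.708 in SMA replicates 1 to 3, and the groups overlapped. Its log2 difference was -0.29 (exact permutation p = 0.4, adjusted p = 0.4) and -0.12 without control replicate 2 (exact permutation p = 0.7, adjusted p = 0.7).

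Eng (endoglin), a co-receptor for BMP9 and TGF-beta ligands, was at 3.33, 7.50 and 6.08 FPKM among controls, against 5.48, 4.09 and 4.84 FPKM among SMA libraries. The lowest and the highest library were both controls, and the SMA values lay between them. The log2 fold change was -0.14 (limma adjusted p = 0.828, standard error 0.26) and turned to 0.06 (limma adjusted p = 0.944, standard error 0.21) without control replicate 2. From there it turned back to -0.29 when control replicate 1 was left out as well and to -0.02 when SMA replicate 1 was. Fpgs, the gene that overlaps Eng, was at 25.7 FPKM in control replicate 2 and at 4.44 to 7.27 FPKM in the others. How the authors assigned reads from the shared bases is not given in the sources used here.

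Pecam1, the adhesion molecule CD31 at endothelial junctions, was at 5.19, 7.06 and 5.26 FPKM among controls. It was at 4.53, 2.92 and 3.64 FPKM among SMA libraries, below all controls. The SMA mean of 3.70 ± 0.808 FPKM (SD, n = 3) was 36.6% below the control mean of 5.83 ± 1.06 FPKM (SD, n = 3), and 29.2% below it without control replicate 2. SMA minus control, the log2 fold change was -0.54 (limma adjusted p = 0.683, standard error 0.17) and -0.42 (limma adjusted p = 0.443, standard error 0.16) without control replicate 2.

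Cdh5 (VE-cadherin), the cadherin of endothelial adherens junctions, had the largest standard error of the 10 genes in both fits. It was at 4.77, 7.31 and 3.21 FPKM among controls, against 4.36, 2.23 and 1.48 FPKM among SMA libraries. SMA replicate 1 was above control replicate 3, so the groups overlapped. On the log2 scale the difference was -0.74 (95% interval -1.58 to 0.09, adjusted p = 0.683 from limma) and -0.49 (95% interval -1.22 to 0.23, adjusted p = 0.619 from limma) without control replicate 2. Leaving out 1 more library moved the second value to between -0.80 and -0.24. Esam, an immunoglobulin-like protein of endothelial tight junctions, was at 3.98, 6.43 and 7.35 FPKM among controls, against 4.40, 3.77 and 5.25 FPKM among SMA libraries. Control replicate 1 lay among the SMA values. This gave a log2 fold change of -0.31 (95% interval -0.83 to 0.20) with 6 libraries and -0.24 (95% interval -0.77 to 0.28) without control replicate 2, and it turned to 0.13 when control replicate 3 was left out as well.

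Emcn (endomucin), a sialomucin of the endothelial surface found mainly on veins and capillaries, was at 1.34, 2.04 and 1.20 FPKM among controls. Its SMA values of 0.779, 0.662 and 0.803 FPKM were close together and below all controls. The SMA mean of 0.748 ± 0.0753 FPKM (SD, n = 3) was 51.0% below the control mean of 1.53 ± 0.448 FPKM (SD, n = 3), and 41.2% below it without control replicate 2. Its log2 fold change was -0.52 (limma adjusted p = 0.683, standard error 0.18) and -0.38 (limma adjusted p = 0.439, standard error 0.14) without control replicate 2. At this low level the added 1 FPKM makes the log2 fold change smaller than the difference of the means. With a pseudocount of 0.01 it reached -0.99 with 6 libraries and -0.76 without control replicate 2.

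Erg, the ETS factor of endothelial cells, was at 0.947, 2.05 and 1.98 FPKM among controls, against 1.86, 1.18 and 1.31 FPKM among SMA libraries. Control replicate 1 was the lowest library and the groups overlapped. The log2 fold change was -0.10 (95% interval -0.64 to 0.44, adjusted p = 0.870 from limma) and 0.02 (95% interval -0.50 to 0.53, adjusted p = 0.985 from limma) without control replicate 2. The second value turned to -0.29 when control replicate 1 was left out as well, to -0.10 when SMA replicate 1 was, and to -0.0176 when the libraries were rescaled to the same summed FPKM.

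In the exact two-sided permutation test of each gene with 6 libraries, Kdr, Tek, Tie1, Pecam1 and Emcn had p = 0.1, the smallest the design allows, and the others had p from 0.2 for Cdh5 to 0.8 for Erg. Without control replicate 2 the permutation p was 0.1 for Tek, Tie1 and Emcn, 0.2 for Kdr and Pecam1, and from 0.4 for Cdh5 to 1 for Erg. No p below 0.05 can be reached in either design.

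**Figure D3:**
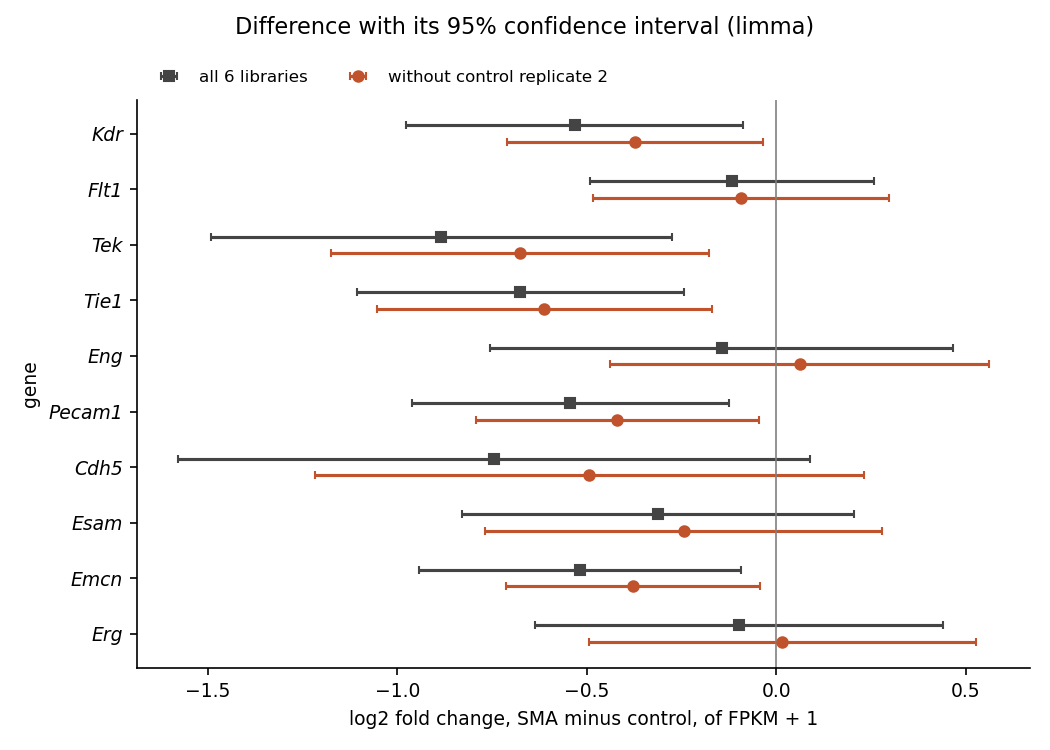
Log2 fold change of FPKM + 1, SMA minus control (x axis), of each of the 10 genes (y axis) with its 95% confidence interval from limma, for all 6 libraries (dark squares) and without control replicate 2 (orange circles). The intervals of Kdr, Tek, Tie1, Pecam1 and Emcn lie below 0 in both fits before adjustment over all genes, while Eng and Erg change sign.

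By mean FPKM over the 6 libraries the order of levels was Kdr (9.50), Flt1 (5.26), Eng (5.22), Esam (5.20), Pecam1 (4.77), Cdh5 (3.90), Tek (2.74), Tie1 (2.59), Erg (1.55) and Emcn (1.14). Kdr was above Flt1 in 6 of 6 libraries and Tie1 above Erg in 6 of 6. Flt1 was above Eng, Eng above Esam, Esam above Pecam1 and Tek above Tie1 in only 3 of 6 libraries each, so the order within these pairs is not resolved. By the mean without control replicate 2, Esam (4.95) came before Eng (4.76) and Tie1 (2.36) before Tek (2.23), and the other ranks were as with 6 libraries. Emcn was the lowest of the 10 in 5 libraries and Erg in control replicate 1.

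The share of each gene in the summed FPKM of the 10 is also free of library scaling. Kdr held 22.9% on average in control (22.8% without control replicate 2) and 22.4% in SMA, with a range of 21.7% to 23.3% over all 6 libraries. Flt1 held 13.2%, 9.25% and 11.4% among controls against 15.2%, 13.8% and 15.5% among SMA libraries, higher in every SMA library. Eng also held more in every SMA library, 13.5%, 14.5% and 14.9% against 8.61%, 12.2% and 12.2%. Tek held 6.22%, 8.66% and 7.96% in control and 4.93%, 5.81% and 3.49% in SMA, lower in every SMA library. Tie1 held 6.16% to 7.86% in control and 4.93% to 5.45% in SMA, also without overlap. Erg held 4.03% to 4.57% in SMA against 2.45% to 3.99% in control. Shares sum to 100% in each library, so a higher share of Flt1, Eng or Erg goes with a lower share of others and is no rise in level.

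Within groups the libraries differed for most of the 10 genes together. The summed level was 38.7, 61.5 and 49.6 FPKM among controls and 40.6, 28.2 and 32.6 FPKM among SMA libraries. SMA replicate 1 was above control replicate 1. SMA replicate 1 had the highest value of its group for 8 of the 10 genes, all but Esam and Emcn. Control replicate 2 was the highest control for 8, all but Tie1 and Esam.

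Among 15407 genes outside the 10 whose mean FPKM reached 1, the 5 whose log2(FPKM + 1) values over the 6 libraries lay nearest to the mean pattern of the 10 were Dab2, Npr1, Ednra, Pxn and Arap3. Their Euclidean distances after centring were 0.103, 0.162, 0.162, 0.163 and 0.163, against 0.132 for Kdr and 0.908 for Cdh5 within the 10. Dab2, an endocytic adaptor, was at 6.99, 10.6 and 9.41 FPKM among controls, against 7.51, 5.58 and 5.65 FPKM among SMA libraries. Ednra, an endothelin receptor known from vascular smooth muscle, was at 4.37, 6.56 and 4.73 FPKM among controls, against 4.01, 3.09 and 3.41 FPKM among SMA libraries. Both had their highest value in control replicate 2, as 7 of the 10 genes did. The mean pattern by which they were picked was highest in that library too, so this is no separate result. Without that library only 1 of the 5 was among the 5 nearest of 14880 genes. Dab2 then ranked 3 (distance 0.0905), Npr1 13, Arap3 28, Ednra 32 and Pxn 33.

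Kdr and Flt1 act with VEGF ligands and with partner receptors. Of 8 such genes, 7 were tested, 0 were lower and 0 higher with unadjusted p under 0.05 in limma in either fit, and the median log2 fold change was -0.03 with 6 libraries and -0.04 without control replicate 2. Nrp2 and Nrp1, the neuropilin co-receptors, had log2 fold changes of 0.11 and 0.11 with 6 libraries and -0.02 and 0.03 without control replicate 2. Vegfb, a ligand of Flt1, had 0.09 and 0.03. Of the 4 angiopoietin and Tie partner genes 3 were tested, again with 0 calls in either direction. The phosphatase Ptprb (VE-PTP), which acts on Tek and VE-cadherin, was at 2.78, 6.61 and 4.15 FPKM among controls, against 3.42, 2.43 and 2.77 FPKM among SMA libraries. The log2 fold change of Ptprb was -0.46 and -0.20 without control replicate 2, not called in either fit. Angpt1, the activating ligand of Tek, had a log2 fold change of -0.09 and Angpt2, its context-dependent antagonist, 0.21 with 6 libraries, with values of -0.06 and 0.15 without control replicate 2.

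In the endoglin, BMP and TGF-beta pathway, 13 of 14 genes were tested with 6 libraries and 0 were called at an unadjusted p under 0.05 in limma. In the fit without control replicate 2, 1 of 12 was lower, near the 5.2% of all genes. This was Id3, a target of BMP signalling, at 16.3 and 14.4 FPKM in control replicates 1 and 3 and at 11.9, 13.5 and 8.43 FPKM in SMA, while control replicate 2 had 10.2 FPKM. The receptor Bmpr2 and the signal transducers Smad5 and Smad1, the most abundant genes of the list, had log2 fold changes of 0.11, 0.08 and 0.11 with 6 libraries and -0.03, 0.0066 and -0.06 without control replicate 2. Bmp10 was not listed in control replicate 1 and SMA replicate 2.

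Among 10 junction partners, 2 were lower and 1 higher with an unadjusted p under 0.05 in limma with 6 libraries, and 3 and 1 without control replicate 2. Of all genes, 2.39% were lower and 3.4% higher with 6 libraries, and 5.2% and 5.27% without control replicate 2. Cldn5, the main claudin of endothelial tight junctions at the blood-brain barrier, was at 25.8, 20.4 and 25.0 FPKM among controls, against 16.4, 15.7 and 14.4 FPKM among SMA libraries. The groups did not overlap, and unlike any of the 10 genes Cldn5 was lowest of the controls in control replicate 2. Its log2 fold change was -0.58 (limma adjusted p = 0.683, standard error 0.12) with 6 libraries and -0.68 (limma adjusted p = 0.108, standard error 0.08) without control replicate 2. Ctnnd1 (p120-catenin), which holds cadherins at the membrane, had -0.25 and -0.19, and Jam3 -0.25 and -0.40, the second called only without control replicate 2. Tjp1 (ZO-1), a scaffold of tight junctions in many cell types, was higher in SMA, at 0.31 and 0.27. Ctnnb1 (beta-catenin), which binds the tail of Cdh5, had 0.14 and 0.05, and Magi1 0.15 and 0.0084.

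Of 16 ETS and other endothelial transcription factors 15 were tested, with a median log2 fold change of -0.35 with 6 libraries and -0.24 without control replicate 2. At an unadjusted p under 0.05 in limma 4 were lower and 0 higher with 6 libraries, and 5 and 0 without control replicate 2. Of all genes, 2.39% were lower with 6 libraries and 5.2% without control replicate 2. In this list 10 of 15 genes were highest of all libraries in control replicate 2. Ets1 was at 9.48, 12.8 and 10.3 FPKM among controls, against 7.31, 5.12 and 4.60 FPKM among SMA libraries. Fli1, the ETS factor most like Erg, was at 2.67, 5.64 and 3.19 FPKM among controls, against 2.15, 1.52 and 1.95 FPKM among SMA libraries. Neither overlapped between groups, whereas Erg did. The log2 fold changes were -0.84 and -0.73 for Ets1 and -0.71 and -0.45 for Fli1, with and without control replicate 2. Sox17, a factor of arterial endothelium, had -0.53 and -0.63, and Lmo2, a partner of Tal1 and Gata2, -0.40 and -0.24. Ets2 had 0.05 and 0.09 and Epas1 (HIF-2alpha) -0.28 and -0.16, neither called.

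Of 28 other endothelial genes 26 were tested, with 5 lower and 0 higher with an unadjusted p under 0.05 in limma with 6 libraries and 6 lower and 0 higher without control replicate 2. The shares of all genes that were lower were 2.39% and 5.2%. In this list the median log2 fold change was -0.36 and -0.22. Cd93, a C-type lectin-like receptor of endothelium, was at 5.55, 6.41 and 7.51 FPKM among controls, against 3.70, 2.53 and 3.11 FPKM among SMA libraries, without overlap. Its log2 fold change of -0.87 was the same to 2 decimals in both fits (standard error 0.16 and 0.17, adjusted p = 0.683 and 0.281 from limma). Clec14a had -0.62 and -0.41, and Icam2 -0.69 and -0.41, the second not called without control replicate 2. Ramp2, part of the adrenomedullin receptor, had -0.45 and -0.56, called only without control replicate 2. S1pr1, a sphingosine phosphate receptor also made by astrocytes, had 0.02 and 0.06 and Ece1 -0.36 and -0.22, neither called. In this list 20 of 28 genes were highest of all libraries in control replicate 2.

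**Figure D4:**
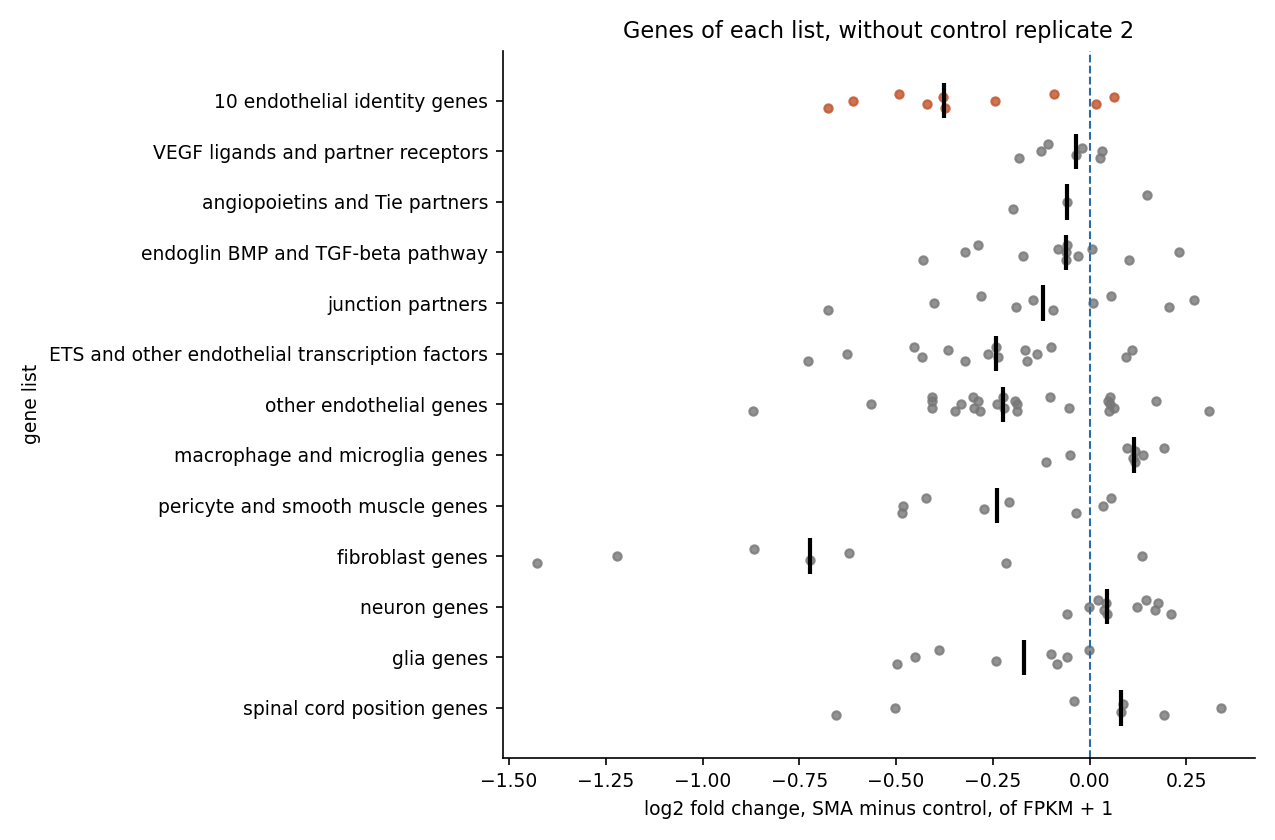
Log2 fold change of FPKM + 1, SMA minus control, without control replicate 2 (x axis) of each tested gene (point) in 13 gene lists (y axis), with a black bar at each list's median and a dashed line at the median of all genes tested (0.0016). The median was -0.38 for the 10 endothelial identity genes (orange) and -0.72 for the fibroblast genes.

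Mural cells, which wrap the endothelial tube, were read from 9 pericyte and smooth muscle genes. Of 8 tested, 3 were lower at an unadjusted p under 0.05 in limma with 6 libraries, beside 2.39% of all genes. The count was 2 without control replicate 2, beside 5.2% of all genes, and 0 were higher in either fit. The summed level was 51.0, 54.9 and 63.6 FPKM among controls and 51.0, 43.9 and 46.9 FPKM among SMA libraries. Rgs5, the most abundant, was at 17.9, 17.2 and 24.6 FPKM among controls, against 15.9, 13.6 and 14.9 FPKM among SMA libraries. Abcc9, a potassium channel subunit of pericytes, had log2 fold changes of -0.40 and -0.27, and Acta2 of smooth muscle -0.73 and -0.48. Notch3 had 0.06 and -0.03, and Cspg4, which oligodendrocyte precursors also make, 0.18 and 0.04.

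Fibroblast genes were read from a list of 7. They summed to 181.7, 197.7 and 165.4 FPKM among controls, and to 198.8, 91.3 and 48.9 FPKM among SMA libraries. SMA replicate 1 was at the level of the controls, and the lowest sum was in SMA replicate 3, while that of the 10 endothelial genes was lowest in SMA replicate 2. Col1a2, the most abundant fibroblast gene, was at 55.8, 45.8 and 59.7 FPKM among controls, against 67.3, 34.2 and 22.1 FPKM among SMA libraries. Col3a1 fell furthest apart within SMA, at 53.2, 20.2 and 3.10 FPKM, and Col1a1 was at 38.5, 12.7 and 6.05 FPKM there. Lum was the 1 gene of 7 called lower at an unadjusted p under 0.05 in limma with 6 libraries, beside 2.39% of all genes. Without control replicate 2 none was called, beside 5.2% lower of all genes. The log2 fold change of Lum was -1.03 with 6 libraries and -0.72 without control replicate 2. The part of fibroblast tissue in the endothelial values was not tested.

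Of 11 neuron genes, 0 were lower in either fit, and 0 with 6 libraries and 3 without control replicate 2 were higher at an unadjusted p under 0.05 in limma, beside 5.27% of all genes in the latter. The 3 were Syt1, Rbfox3 and Slc32a1. Their log2 fold changes were 0.41, 0.39 and 0.51 with 6 libraries, and 0.15, 0.21 and 0.18 without control replicate 2. Tubb3 had 0.43 and 0.12, Stmn2 0.34 and 0.05, and Meg3 0.17 and 0.17 in the fits with and without control replicate 2. Of 8 glia genes, 0 were called with 6 libraries, and 2 were lower without control replicate 2, beside 5.2% of all genes. These were Fabp7 of radial glia and immature astrocytes and Aqp4, the water channel of astrocyte endfeet on vessels. Fabp7 had log2 fold changes of -0.30 with 6 libraries and -0.50 without control replicate 2, and Aqp4 -0.13 and -0.24. Mbp, a myelin gene of oligodendrocytes, had -0.28 with 6 libraries and -0.39 without control replicate 2. The 8 genes summed to 1655, 1355 and 1977 FPKM among controls against 1318, 1450 and 1419 FPKM among SMA libraries. Of macrophage and microglia genes, 0 of 9 tested with 6 libraries and 0 of 8 tested without control replicate 2 were called, and P2ry12, C1qb and Csf1r, the most abundant, had log2 fold changes of 0.0049, -0.16 and -0.10 with 6 libraries and -0.11, 0.19 and 0.12 without control replicate 2. Their sums were 63.1, 109 and 60.8 FPKM for the controls and 65.1, 66.7 and 60.8 FPKM for the SMA libraries. Clec4f of Kupffer cells was not listed in control replicate 3.

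Spinal cord position genes differed between libraries too. Of 7 Hox genes, 0 were lower and 1 higher with an unadjusted p under 0.05 in limma with 6 libraries, and 2 and 1 without control replicate 2. The shares of all genes lower and higher were 2.39% and 3.4% with 6 libraries, and 5.2% and 5.27% without control replicate 2. Summed, the 7 reached 187.8, 123.8 and 244.3 FPKM among controls and 206.2, 206.6 and 216.4 FPKM among SMA libraries. Hoxd10 was at 26.1, 15.1 and 50.7 FPKM among controls, against 18.2, 27.0 and 24.0 FPKM among SMA libraries. Hoxc10 was also highest in control replicate 3, at 35.9 FPKM against 14.6 to 23.7 FPKM in the others. The 2 called lower without control replicate 2 were Hoxd10, with log2 fold changes of -0.25 with 6 libraries and -0.66 without control replicate 2, and Hoxc10, with -0.19 and -0.50. Hoxa7, the gene called higher, had 0.46 and 0.34 and Hoxb8, the most abundant, 0.43 and 0.19. The part of position along the cord in the endothelial values was not tested.

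Of the lists that mark control replicate 2, 0 of 18 hepatocyte, 9 erythroid, 7 neutrophil, 9 liver sinusoidal endothelial and 4 megakaryocyte and platelet genes tested were called at an unadjusted p under 0.05 in limma with 6 libraries. Without control replicate 2, 1 of 15 hepatocyte genes (Serpinc1), 2 of 8 erythroid genes (among them Ermap) and 1 of 3 neutrophil genes (Camp) were lower. This was beside 5.2% of all genes, to which 1 of 15 is near, and 0 of 3 genes of each of the other 2 lists were called. Serpinc1 had log2 fold changes of -2.84 with 6 libraries and -0.38 without control replicate 2. Ermap had -1.79 and -0.51, and Camp -1.79 and -0.54. Stab1, which brain macrophages also make and the most abundant sinusoidal gene, was at 3.71, 12.5 and 6.08 FPKM among controls, against 5.25, 2.65 and 2.86 FPKM among SMA libraries. Fcgr2b, an inhibitory Fc receptor, was at 8.35 FPKM in control replicate 2 and lower in the other 5 libraries.

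**Figure D5:**
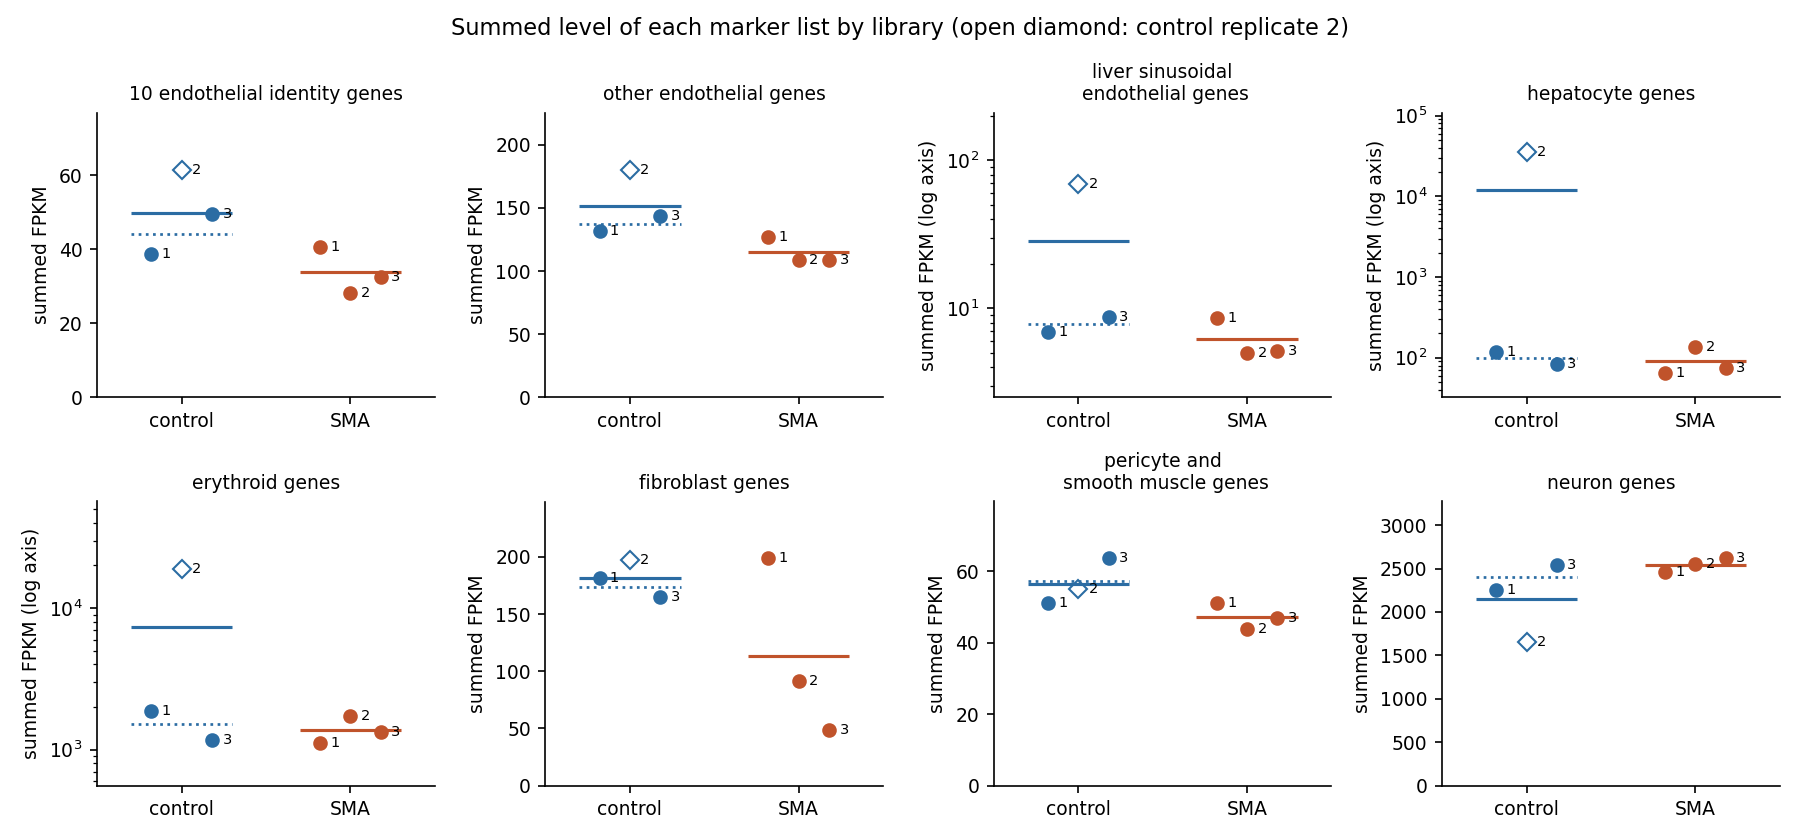
Summed FPKM (y axis, on a log scale where labelled) of 8 gene lists in each control (blue) and SMA (orange) library, with points and lines as in the plot of the 10 genes. Control replicate 2 holds 35920 FPKM of hepatocyte genes against 64.9 to 136.7 FPKM elsewhere. SMA replicate 1 lies above the other SMA libraries for endothelial (liver sinusoidal included), fibroblast, and pericyte and smooth muscle genes. For hepatocyte, erythroid and neuron genes it lies below them.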

How the data were processed

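The deposited values are FPKM per gene, 1 file for each of 6 spinal cord libraries. The authors made strand-specific libraries from RNA depleted of ribosomal RNA, aligned the reads with HISAT2 and derived FPKM from Cufflinks, library by library. Whether counting used the strand is not given in the sources used here. Per the labels the build is mm10, while versions and the annotation release are not given in the sources used here. Genes not listed in a library were set to 0 FPKM. Depth in reads is unknown, so no counting error is given. The libraries listed 21197 to 22296 genes.

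Values were compared as log2(FPKM + 1) with lmFit and eBayes (trend) of limma 3.58.1 in R 4.3.3, two-sided, over genes whose mean FPKM reached 0.5, with Benjamini-Hochberg adjustment over all genes tested. The fit was tested on simulated data and repeated without control replicate 2. Exact permutation tests were added for single genes and ratios. Members and lists were chosen with earlier results of these data known. From each other list the 3 genes with the highest mean FPKM were named, and up to 3 with the largest log2 fold change at an unadjusted p under 0.05 in either fit. The 5 nearest patterns were found over genes whose mean FPKM reached 1, and again without control replicate 2, a repeat chosen after seeing the data. Vegfd was read under its older symbol Figf, and Etv2 has no value here. Alternatives were pseudocounts of 0.1 and 0.01, no filter or a mean of at least 1 FPKM, 5 scalings, eBayes in its robust form, a block for replicate number and leaving out each library. Values of some list genes are not reported here. The single-cell libraries were not analysed here.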

Additional observations from a re-analysis of the deposited data

How the results depend on the processing

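The median log2 fold change of the 10 endothelial genes was negative under every alternative, from -0.64 to -0.38 with 6 libraries and from -0.47 to -0.28 without control replicate 2. No member passed an adjusted p of 0.05 in limma under any of them, while 5 were lower at an unadjusted p under 0.05 in both fits. Kdr, Tek, Tie1, Pecam1, Cdh5 and Emcn kept a negative log2 fold change in all alternatives. Emcn has no value without control replicate 2 where a mean of at least 1 FPKM is asked. Depth is unknown, so its limit on low genes such as Emcn and Erg cannot be given.

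Scaling to neuron and glia genes lowered the number of members at an unadjusted p under 0.05 to 2 in both fits (1.52% and 2.15% of all genes were lower), and moved the median of all genes by -0.12 with 6 libraries. Relative to the median of all genes, the members were then at -0.56, against -0.57 as deposited. Leaving out single libraries gave 2 to 7 such members with 6 libraries, where 0.731% to 5.2% of all genes were lower, and 1 to 5 with 5, where 3.22% to 8.24% were. It gave 5 to 8 members without overlap in both, beside 8.74% to 13.9% and 17.7% to 33.1% of all genes. Eng turned to 0.0619 and Erg to 0.0155 without control replicate 2, and Flt1 to 0.0257 without SMA replicate 2 with 6 libraries, where leaving out single libraries gave -0.43 to 0.06 for Eng, -0.31 to 0.02 for Erg and -0.25 to 0.03 for Flt1. With 5 libraries the ranges, chosen after seeing the data, were -0.29 to 0.42 for Eng, -0.29 to 0.32 for Erg, -0.62 to 0.13 for Esam and -0.23 to 0.0491 for Flt1. Erg with 5 libraries was at -0.0176 when rescaled to the same summed FPKM, and at -0.0180 without the genes high in control replicate 2 only. The causes were not tested.

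Same-numbered libraries deviated from their group means with correlations of -0.04, 0.02 and 0.08, and libraries of different numbers with -0.06 to 0.04. Control replicates 1 and 2 each correlated best with an SMA library of another number. The control mean includes control replicate 2, so these correlations cannot decide whether same-numbered libraries share more than a number. With the replicate number as a block the count at an unadjusted p under 0.05 was 4 with 6 libraries (1.77% of all genes) and 1 with 5 (3.34%; added after seeing the data, as was the robust form with 5), where Flt1 was at 0.0491. Of all genes at an unadjusted p under 0.05, 41.3% were lower as deposited, and 53.3%, 51.6%, 51.7% and 69.7% after scaling to the same sum, by median ratios, to neuron and glia genes, and to the same sum without genes high in control replicate 2, but 34.1% after quantile normalization. Without control replicate 2 it was 49.7%, and 73.7%, 30.3% and 74.0% after scaling to the same sum, to neuron and glia genes, and to the same sum without those genes, with 51.6% by median ratios and 49.2% after quantile normalization.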
